A study of Homo sapiens with 8 samples.

Results

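The RNAs described here are 10 long noncoding RNAs, taken as the rows of the count table whose gene symbol is GAS5, SNHG1, SNHG5, SNHG8, SNHG12, SNHG15, ZFAS1, EPB41L4A-AS1, MALAT1 or NEAT1. These 10 symbols matched 11 of the 31710 rows of the table, because MALAT1 names a long noncoding row and a second, protein-coding row with 10 reads in all 8 libraries together. The second MALAT1 row did not pass the low-count filter and was not used further. The other 10 rows passed it, with 175 reads (EPB41L4A-AS1) to 7912 reads (MALAT1) per library. Rows were matched by name and not by a measured value, but the names were chosen with earlier results of these data known.

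RNA was measured in Hep3B and Huh7, established human liver cancer cell lines, by sequencing of poly(A)-selected RNA. Each line had 1 library for each of 4 treatments, in all 8 libraries: 10 days of XL413 and then 24 hours of sertraline (both drugs), sertraline alone, XL413 alone for 10 days, and no drug (control). XL413 inhibits CDC7, a kinase that fires replication origins, and per the labels was given to make the cells senescent. Sertraline is an antidepressant that blocks serotonin reuptake. The sources used here give neither the doses nor the hours of sertraline in cells without XL413. No treatment was repeated inside a line, so the replicates of a treatment are 1 library of each line, and a p-value for a treatment is set against how differently the lines responded.

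A snoRNA host gene is transcribed into a precursor whose introns carry small nucleolar RNAs, the guides that direct methylation or pseudouridylation of ribosomal RNA. The spliced exons form a noncoding RNA that many hosts turn over quickly on ribosomes through nonsense-mediated decay, and several hosts start with the pyrimidine-rich 5′ end (5′ TOP) that marks ribosomal protein mRNAs. GAS5, ZFAS1, EPB41L4A-AS1 and the SNHG genes are such hosts. NEAT1 is the scaffold of paraspeckles, nuclear bodies that hold RNA-binding proteins such as SFPQ, and MALAT1 lies in nuclear speckles, which store splicing factors. Mature snoRNAs, the long NEAT1 form and mature MALAT1 end without an ordinary poly(A) tail, so poly(A) selection recovers them in part or not at all.

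Library depth ranged from 20275392 to 30842770 reads, and the 10 RNAs took 0.0603% to 0.0948% of the reads. Reads of mitochondrial genes were 2.64% to 5.12% of a library, and RNAs known to lack a poly(A) tail summed to 16 to 46 reads. Of 12 such RNAs searched for, 6 were in the count table. Their sum in the Huh7 control was 0.612 CPM (counts scaled to library size with TMM factors). In Huh7 it was 1.17 CPM with sertraline, 1.30 CPM with XL413 and 1.52 CPM with both drugs. In Hep3B it was 0.851 CPM in control, 1.05 CPM with sertraline, 1.41 CPM with XL413 and 1.25 CPM with both drugs. All 10 liver lineage markers reached 1 CPM in some library. Of 10 markers of other cell types, 6 did so, and the sum of the 10 was 13.97 to 243.8 CPM. The leukocyte markers PTPRC, CD68 and CD3E and the vessel marker VWF stayed under 1 CPM in every library. The vessel markers PECAM1 and CDH5 reached 6.20 CPM (Huh7 control) and 1.19 CPM (Huh7 with both drugs). The highest markers were COL1A2, COL1A1 and COL3A1, with up to 182, 33.1 and 5.58 CPM (each in Huh7 with XL413), and PDGFRB, with up to 31.4 CPM (Huh7 control). The part of these markers of other cell types in the results below was not tested.

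The 5′ ends are shown because a C followed by a run of pyrimidines at the cap is the sequence feature shared by several of these hosts. Each line below holds the 30 bases at the start of a GENCODE release 29 transcript (GRCh38), with a C and at least 4 pyrimidines after it in capitals where they open the transcript. For each host the start shown is the one most transcripts share among those with such a run, and for EPB41L4A-AS1, SNHG15 and NEAT1, whose transcripts share no start and have no such run, it is the most upstream one. For MALAT1 it is the start most transcripts share. As an exception, for SNHG1 the start that 9 transcripts share is shown together with the start that RefSeq gives.
GAS5 (chromosome 1, start site 173867989, minus strand): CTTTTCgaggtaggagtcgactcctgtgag
ZFAS1 (chromosome 20, start site 49278642, plus strand): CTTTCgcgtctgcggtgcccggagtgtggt
SNHG5 (chromosome 6, start site 85678733, minus strand): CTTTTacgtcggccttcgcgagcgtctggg
SNHG8 (chromosome 4, start site 118278758, plus strand): CTTTCacattcgggaagcgtcgggattagg
SNHG12 (chromosome 1, start site 28581873, minus strand): CCTTTCTCCCCgccgcattcccggtgtcga
SNHG1 (chromosome 11, start site 62855488, minus strand): cttattgggctcctgtctgcaggatttacg
SNHG1, RefSeq start (chromosome 11, start site 62855885, minus strand): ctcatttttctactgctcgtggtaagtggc
EPB41L4A-AS1 (chromosome 5, start site 112160526, plus strand): tgtcgggtcccaaaatacgtggtctaaagt
SNHG15 (chromosome 7, start site 44986961, minus strand): cattaggggctcagcgcgtccctccaggcc
NEAT1 (chromosome 11, start site 65422774, plus strand): gcaaaagttgtggcaagtccagccggagtt
MALAT1 (chromosome 11, start site 65499042, plus strand): ggtaggcattgaggcagccagcgcaggggc

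Such a start was found in 6 of the 10 genes (GAS5, SNHG1, SNHG5, SNHG8, SNHG12 and ZFAS1) and in 18 of their 148 transcripts, or 12.2%. Among ribosomal protein genes it was found in 66 of 79 genes and in 20.4% of transcripts. Over all GENCODE genes it was found in 6.75% of genes and 2.41% of transcripts. GAS5 had it in 6 of 29 transcripts, SNHG12 in 4 of 17, SNHG5 in 3 of 23, ZFAS1 in 3 of 10, SNHG8 in 1 of 5 and SNHG1 in 1 of 25. The files used here do not tell which transcript start the cells used.

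RefSeq promoters (GRCh38.p14, 250 bases before to 50 bases after the gene start) were at hand for 8 of the 10 genes. The promoters of GAS5, ZFAS1, EPB41L4A-AS1 and SNHG5 are shown because these RNAs moved together over the libraries, as given below. TATATAAG, a TATA box sequence, is in capitals where it occurs. The RefSeq window of GAS5 lies upstream of the GAS5 start printed above.
GAS5, chr1:173868996-173869295, minus strand: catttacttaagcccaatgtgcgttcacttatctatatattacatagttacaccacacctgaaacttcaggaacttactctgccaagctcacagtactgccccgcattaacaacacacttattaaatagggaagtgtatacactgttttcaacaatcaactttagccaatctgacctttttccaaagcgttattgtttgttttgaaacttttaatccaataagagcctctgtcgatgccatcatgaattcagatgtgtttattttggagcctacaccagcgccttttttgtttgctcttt
ZFAS1, chr20:49278392-49278691, plus strand: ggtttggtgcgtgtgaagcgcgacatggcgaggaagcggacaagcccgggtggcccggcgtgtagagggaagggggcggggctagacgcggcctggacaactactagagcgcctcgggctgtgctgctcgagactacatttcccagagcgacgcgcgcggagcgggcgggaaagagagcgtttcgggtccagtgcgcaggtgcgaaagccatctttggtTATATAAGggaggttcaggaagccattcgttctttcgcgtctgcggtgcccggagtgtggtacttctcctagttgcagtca
EPB41L4A-AS1, chr5:112160276-112160575, plus strand: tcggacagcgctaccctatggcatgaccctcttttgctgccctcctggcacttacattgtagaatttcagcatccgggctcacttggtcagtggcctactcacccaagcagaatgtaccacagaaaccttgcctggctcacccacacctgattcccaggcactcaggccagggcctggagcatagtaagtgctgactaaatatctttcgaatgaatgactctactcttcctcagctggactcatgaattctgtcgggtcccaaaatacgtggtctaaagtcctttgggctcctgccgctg
SNHG5, chr6:85678684-85678983, minus strand: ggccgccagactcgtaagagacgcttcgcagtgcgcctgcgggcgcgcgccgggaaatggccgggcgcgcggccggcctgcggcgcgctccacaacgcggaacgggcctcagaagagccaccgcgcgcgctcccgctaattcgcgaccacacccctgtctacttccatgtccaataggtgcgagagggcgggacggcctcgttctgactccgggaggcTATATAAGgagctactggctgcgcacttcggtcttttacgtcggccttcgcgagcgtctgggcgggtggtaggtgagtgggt
TATATAAG, searched on both strands, was found on the gene's own strand in 3 of the 8 (ZFAS1, SNHG5 and SNHG12), starting 31, 32 and 30 bases before the start site, and in 0.644% of all 35116 promoters; it was searched for after the sequences had been read. GAS5 and EPB41L4A-AS1, which moved with ZFAS1 (Pearson r of 0.97 and 0.979), did not hold it, and SNHG12, which did, had an r of -0.0364 with ZFAS1. CACGTG, which MYC and TFE factors bind, TGACGTCA, the CREB site, and TGATGNAA, the composite site of ATF4 and C/EBP factors, were in 0 of the 8 on either strand, against 7.26%, 1.85% and 3.62% of all promoters. A match is letters in this window and does not show that a factor is bound.

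The hosts GAS5, ZFAS1, EPB41L4A-AS1, SNHG5 and SNHG8 had higher levels in the sertraline library than in its match without sertraline, in both lines and with or without XL413. In bulk RNA a different level per cell and a different mix of cells cannot be told apart. GAS5 (chromosome 1, 173863900 to 173868882 in the deposited table), a host named for its rise in growth arrest, had 180.0 CPM with both drugs, 236 CPM with sertraline, 149 CPM with XL413 and 185 CPM in control in Hep3B. In Huh7 it had 185 CPM with both drugs, 215 CPM with sertraline, 106 CPM with XL413 and 119.7 CPM in control. In Huh7 both sertraline libraries lay above both libraries without it, whereas in Hep3B the library with both drugs lay just under the control.

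ZFAS1 (chromosome 20, 49278178 to 49295738), antisense to ZNFX1 and host of SNORD12 genes, had 34.4 CPM with both drugs, 40.4 CPM with sertraline, 28.4 CPM with XL413 and 29.3 CPM in control in Hep3B. Its Huh7 values were 45.3 CPM with both drugs, 49.6 CPM with sertraline, 26.8 CPM with XL413 and 29.9 CPM in control. The libraries with and without sertraline did not overlap over both lines together. The same held for EPB41L4A-AS1 (chromosome 5, 112160526 to 112164276), host of SNORA13, the least abundant in reads of the 10 rows. How many of all genes were without overlap in this way was not computed.

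EPB41L4A-AS1 had 10.6 CPM with both drugs, 16.7 CPM with sertraline, 8.25 CPM with XL413 and 8.72 CPM in control in Hep3B, and 16.7 CPM with both drugs, 17.1 CPM with sertraline, 7.40 CPM with XL413 and 7.84 CPM in control in Huh7. SNHG5 (chromosome 6, 85660950 to 85678736), host of SNORD50 genes, differed most by line. It had 21.98 CPM with both drugs, 23.2 CPM with sertraline, 19.5 CPM with XL413 and 20.0 CPM in control in Hep3B. Its Huh7 values were 130.3 CPM with both drugs, 164 CPM with sertraline, 81.5 CPM with XL413 and 94.5 CPM in control. Within each line both sertraline libraries lay above both others.

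SNHG8 (chromosome 4, 118278709 to 118279823), host of SNORA24, had 38.7 CPM with both drugs, 32.1 CPM with sertraline, 33.9 CPM with XL413 and 29.5 CPM in control in Hep3B. In Huh7 it had 45.8 CPM with both drugs, 65.6 CPM with sertraline, 33.3 CPM with XL413 and 44.5 CPM in control. Each sertraline library lay above its match without sertraline, but the order of the 4 treatments differed between the lines. The hosts SNHG1, SNHG12 and SNHG15 were not higher with sertraline than in control in both lines.

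SNHG1 (chromosome 11, 62851988 to 62855914), which carries several SNORD genes including SNORD25 to SNORD28, had 122 to 149 CPM in Hep3B and 169.9 to 196 CPM in Huh7. SNHG12 (chromosome 1, 28578538 to 28582983), host of SNORA44 and SNORD99, had 7.32 to 11.7 CPM in Hep3B and 14.3 to 17.9 CPM in Huh7, with the Hep3B sertraline library lowest. SNHG15 (chromosome 7, 44983023 to 44986961), host of SNORA9, was highest in control in each line. It had 13.1 CPM with both drugs, 12.4 CPM with sertraline, 15.3 CPM with XL413 and 20.8 CPM in control in Hep3B, and 35.7 CPM, 38.9 CPM, 42.7 CPM and 46.5 CPM in the same order in Huh7.

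NEAT1 (chromosome 11, 65422774 to 65445540) had 199.8 CPM with both drugs, 167 CPM with sertraline, 123 CPM with XL413 and 98.3 CPM in control in Hep3B. It had 115 CPM with both drugs, 63.4 CPM with sertraline, 51.9 CPM with XL413 and 33.7 CPM in control in Huh7. The order of the treatments was the same in both lines, with a span of 2.03-fold in Hep3B and 3.42-fold in Huh7. MALAT1 (chromosome 11, 65497762 to 65506516) had 230.4 CPM with both drugs, 277 CPM with sertraline, 185 CPM with XL413 and 160.2 CPM in control in Hep3B. In Huh7 it had 117 CPM with both drugs, 74.0 CPM with sertraline, 93.9 CPM with XL413 and 67.7 CPM in control. Control was the lowest library of each line for MALAT1.

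**Figure D1:**
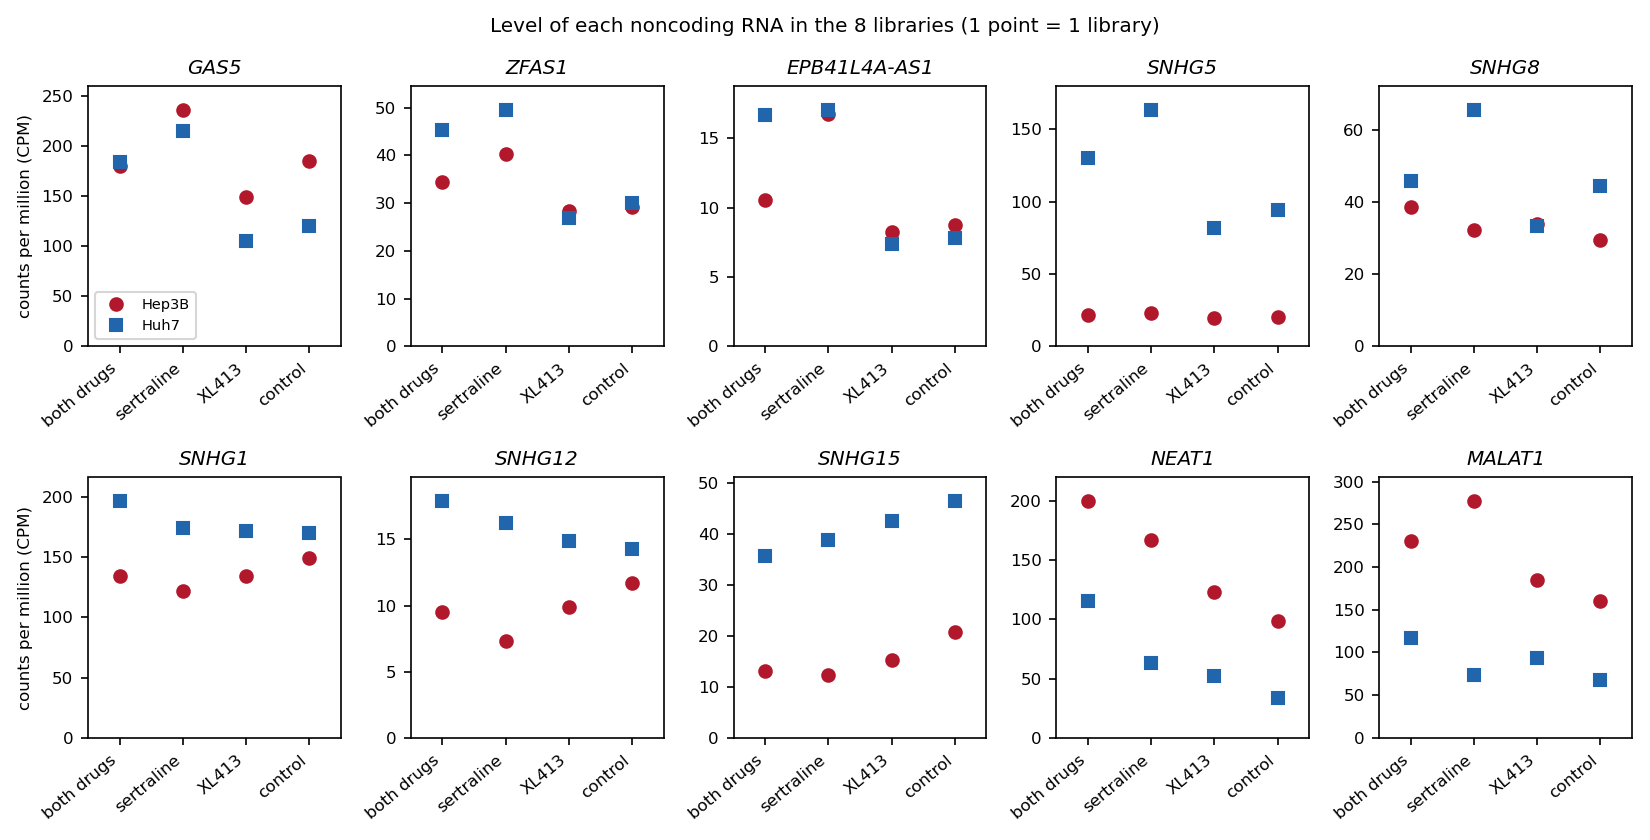
Level of each RNA in CPM (TMM-scaled, linear axis from 0) in the 4 treatments, with red circles for Hep3B and blue squares for Huh7; each point is 1 library. NEAT1 levels ran from high to low in the order both drugs, sertraline, XL413, control in each line, while SNHG5 stayed between 19.5 and 23.2 CPM in Hep3B and spanned 81.5 to 164 CPM in Huh7.

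Sertraline was first compared with control over both lines. NEAT1 rose 1.78-fold (log2 change 0.83 ± 0.17 SE, edgeR adjusted p = 0.0362), and EPB41L4A-AS1 rose 2.04-fold (1.03 ± 0.23, edgeR adjusted p = 0.0428), each higher in both lines. These were 2 of the 10 RNAs, where 4.9% of all 16972 genes tested were called at an adjusted p under 0.05. ZFAS1 (0.60 ± 0.15, adjusted p = 0.0635), GAS5 (0.59 ± 0.17, adjusted p = 0.0852) and SNHG5 (0.53 ± 0.18, adjusted p = 0.136) did not pass, nor did MALAT1 (0.50 ± 0.21) and SNHG8 (0.37 ± 0.22), though all 5 were higher in both lines. SNHG15 was lower in both lines and did not pass (-0.50 ± 0.15, adjusted p = 0.104), and SNHG12 and SNHG1 had changes of -0.24 and -0.13 with opposite directions in the lines. The median log2 change of the 10 RNAs was 0.51, that of all genes 0.01.

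Both calls were lost in fits that left out a single library, which also leaves fewer residual degrees of freedom. Over all settings tried, the log2 change was 0.65 to 1.05 for NEAT1 and 0.86 to 1.20 for EPB41L4A-AS1. NEAT1 was no longer called without the Huh7 control (adjusted p = 0.175), Huh7 sertraline (0.0623), Huh7 XL413 (0.0516), Hep3B control (0.0813) or Hep3B sertraline library (0.184). EPB41L4A-AS1 was no longer called without the Huh7 control (adjusted p = 0.195), Huh7 sertraline (0.0979), Huh7 XL413 (0.0533), Hep3B control (0.123), Hep3B sertraline (0.181) or Hep3B XL413 library (0.0519). MALAT1 became called without the Huh7 sertraline library (log2 change 0.87, adjusted p = 0.0282). GAS5 and ZFAS1 passed with DESeq2 (adjusted p = 0.0272 and 0.0137).

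Sertraline was then compared in cells pretreated with XL413, that is both drugs against XL413. By edgeR 0 of the 10 RNAs were called, where 0.937% of all genes were. An unadjusted p under 0.05 was found for 5 of the 10, beside 2718 of all 16972 genes. NEAT1 missed the threshold (log2 change 0.94 ± 0.17, adjusted p = 0.0533), and was called with DESeq2 and without either control or either sertraline-only library (adjusted p 0.0401 to 0.0481). EPB41L4A-AS1 (0.79 ± 0.23), GAS5 (0.54 ± 0.17), ZFAS1 (0.52 ± 0.15) and SNHG5 (0.43 ± 0.18) were again higher in both lines, with adjusted p of 0.154 to 0.291. SNHG8 had 0.31, MALAT1 0.31, SNHG12 0.11 and SNHG1 0.10. SNHG15 again had a negative value, -0.24 ± 0.15. The median over the 10 RNAs was 0.37, that of all genes 0.00274.

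**Figure D2:**
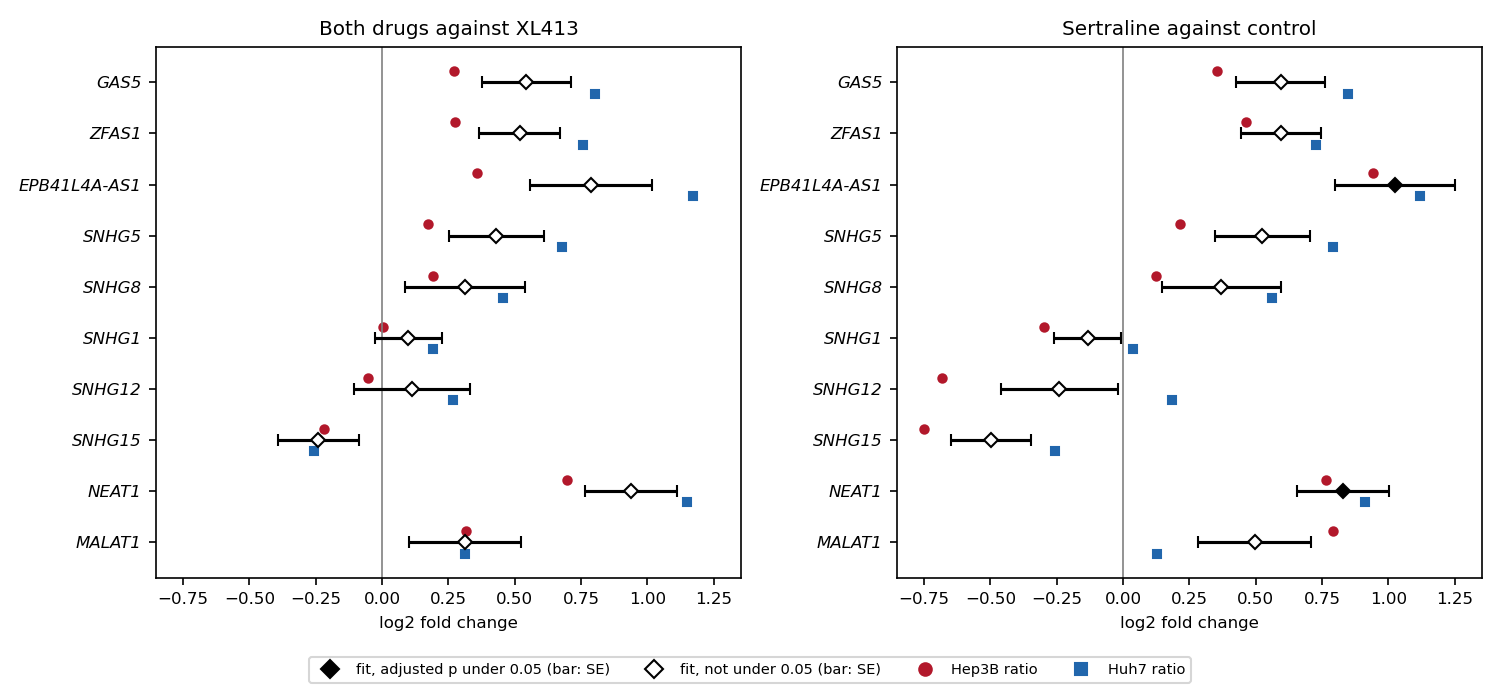
Log2 fold change of each RNA for both drugs against XL413 (left panel) and sertraline against control (right panel), from the fit over both lines (diamonds, bars ± 1 SE, filled where the adjusted p is under 0.05), with the ratio of the 2 libraries of each line beside it. Hep3B lay to the left of Huh7 in both panels for 8 of the 10 RNAs, the exceptions being MALAT1, with Hep3B to the right in both, and SNHG15, with Hep3B to the right in the left panel.

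With both drugs against control, NEAT1 was 2.64-fold higher (log2 change 1.40 ± 0.18, edgeR adjusted p = 0.0101). This was 1 of the 10 RNAs called, where 9.22% of all genes were. Without the Huh7 library given both drugs the NEAT1 value was 1.09 and no longer called (adjusted p = 0.0889). MALAT1 (0.66 ± 0.21, adjusted p = 0.0871), EPB41L4A-AS1 (0.70 ± 0.23, adjusted p = 0.0882) and SNHG15 (-0.53 ± 0.15, adjusted p = 0.0647) did not pass, and MALAT1 passed without the Huh7 or the Hep3B sertraline library (adjusted p = 0.0199 for each). GAS5 had 0.29 ± 0.17, ZFAS1 0.42 ± 0.15, SNHG5 0.31 ± 0.18, SNHG8 0.22 ± 0.22, SNHG1 0.02 ± 0.13 and SNHG12 0.0060 ± 0.22 in this comparison, none of them called.

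XL413 against control called 0 of the 10 RNAs and 0% of all genes by edgeR, and 0 of the 10 by DESeq2 or limma voom. At an unadjusted p under 0.05 stood 1 of the 10, beside 1828 of all 16972 genes. That 1 was NEAT1, higher in both lines (0.46 ± 0.17, adjusted p = 0.415). GAS5 had -0.25 ± 0.17 and SNHG15 -0.29 ± 0.15, each lower in both lines. MALAT1 had 0.35 ± 0.21, and SNHG5 (-0.12), SNHG12 (-0.11), ZFAS1 (-0.10), SNHG8 (-0.09), EPB41L4A-AS1 (-0.09) and SNHG1 (-0.07) lay closer to 0.

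Both drugs against sertraline called 0 of the 10 and 0% of all genes by edgeR, and 0 of the 10 by DESeq2 or limma voom. NEAT1 was again the 1 RNA at an unadjusted p under 0.05 (0.57 ± 0.17, edgeR adjusted p = 0.256), beside 2173 of all 16972 genes. EPB41L4A-AS1 (-0.32), GAS5 (-0.30), SNHG5 (-0.22), ZFAS1 (-0.18), SNHG8 (-0.15) and SNHG15 (-0.03) had negative values, and SNHG1 (0.16), MALAT1 (0.16) and SNHG12 (0.25) positive ones. The interaction, which asks whether sertraline acted differently after XL413, called 0 of the 10 and 0% of all genes by edgeR. It called 0 of the 10 by DESeq2 or limma voom. At an unadjusted p under 0.05 stood 0 of the 10, beside 140 of all 16972 genes. The interaction values ran from -0.24 ± 0.32 (EPB41L4A-AS1) to 0.35 ± 0.31 (SNHG12), with 0.11 ± 0.24 for NEAT1. Between these lay MALAT1 (-0.18), SNHG5 (-0.09), ZFAS1 (-0.08), SNHG8 (-0.06), GAS5 (-0.05), SNHG1 (0.23) and SNHG15 (0.26). Comparisons that share libraries are not independent of each other.

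The lines were then compared over all treatments. Hep3B had more NEAT1 (log2 difference 1.24 ± 0.12, edgeR adjusted p = 5.25e-05) and more MALAT1 (1.28 ± 0.15, adjusted p = 0.000146) than Huh7. It had less SNHG5 (-2.43 ± 0.13, adjusted p = 2.17e-06), SNHG15 (-1.43 ± 0.11), SNHG12 (-0.73 ± 0.16), SNHG8 (-0.46 ± 0.16) and SNHG1 (-0.40 ± 0.09), all 5 called. These 7 of 10 stood beside 62.7% of all genes called between the lines. For NEAT1 each Hep3B library lay above the Huh7 library of the same treatment, but the lines overlapped, since the Hep3B control (98.3 CPM) was below the Huh7 library with both drugs (115 CPM). For MALAT1, SNHG5, SNHG15, SNHG12 and SNHG1 the libraries of the lines did not overlap. The share of all genes without such overlap was not computed, so this is only a description.

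SNHG8 was no longer called between the lines without the Huh7 control (adjusted p = 0.0967), Huh7 sertraline (0.125), Hep3B control (0.0963) or Hep3B sertraline library (0.124). GAS5 (0.30 ± 0.12, adjusted p = 0.0521) missed the threshold. It was called without either library given both drugs or either sertraline library (adjusted p 0.0213 to 0.0484). ZFAS1 (-0.16 ± 0.11) and EPB41L4A-AS1 (-0.10 ± 0.16) did not pass.

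Drug effects inside each line were estimated in a model that gives each line its own sertraline effect and its own XL413 effect, 2 libraries with the drug against 2 without. It had 2 residual degrees of freedom and 18 prior degrees of freedom, the weight given to the spread shared by all genes. The error of a gene is thus mostly that shared spread. The spread comes from departures of the drug effects from additivity, not from repeated cultures. Inside Hep3B, sertraline called 6 of the 10 RNAs, where 24.1% of all genes were called. NEAT1 (0.73 ± 0.10, edgeR adjusted p = 1.17e-05), EPB41L4A-AS1 (0.67 ± 0.15), MALAT1 (0.55 ± 0.11), ZFAS1 (0.37 ± 0.10) and GAS5 (0.31 ± 0.09) rose and SNHG15 fell (-0.49 ± 0.13). SNHG5 (0.19), SNHG8 (0.16), SNHG1 (-0.15) and SNHG12 (-0.37) were not called. Without the Hep3B control or the Hep3B sertraline library, the 5 calls other than NEAT1 were lost, with adjusted p of 0.125 to 0.560. SNHG12 was called without either Hep3B library given XL413 (log2 change -0.68).

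Inside Huh7, sertraline also called 6 of the 10 RNAs, where 27.9% of all genes were called. EPB41L4A-AS1 (1.15 ± 0.14), NEAT1 (1.03 ± 0.10, edgeR adjusted p = 1.33e-07), GAS5 (0.83 ± 0.09), ZFAS1 (0.74 ± 0.10), SNHG5 (0.73 ± 0.09) and SNHG8 (0.51 ± 0.10) rose. SNHG12 (0.23), MALAT1 (0.22) and SNHG1 (0.11) were not called. SNHG8 was not called without the Huh7 control or the Huh7 sertraline library (adjusted p = 0.0634 and 0.0635). SNHG15 (-0.26 ± 0.11, adjusted p = 0.107) became called when any Hep3B library was left out (adjusted p 0.0260 to 0.0275).

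The difference between the lines in the sertraline effect, Hep3B minus Huh7, was called for 2 of the 10, where 4.34% of all genes were called. It was -0.51 ± 0.13 for GAS5 (edgeR adjusted p = 0.0328) and -0.54 ± 0.14 for SNHG5 (adjusted p = 0.0310), so both RNAs rose more in Huh7. The sign was negative for 9 of the 10 RNAs, MALAT1 being the exception (0.33 ± 0.16, adjusted p = 0.271). The others had -0.59 (SNHG12), -0.48 (EPB41L4A-AS1), -0.37 (ZFAS1), -0.35 (SNHG8), -0.30 (NEAT1), -0.26 (SNHG1) and -0.24 (SNHG15). Without any 1 of the 4 Huh7 libraries neither GAS5 (adjusted p 0.197 to 0.258) nor SNHG5 (0.148 to 0.289) was called, and SNHG5 was lost also without the Hep3B control (0.0534) and with DESeq2 (0.0699). EPB41L4A-AS1 was called without the Hep3B control or sertraline library (-0.77 and -0.79), and SNHG12 (-0.91) and MALAT1 (0.57) without either Hep3B library given XL413.

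XL413 inside Hep3B called 2 of the 10 RNAs, where 17.1% of all genes were called. NEAT1 rose (0.29 ± 0.10, edgeR adjusted p = 0.0406) and GAS5 fell (-0.35 ± 0.09, adjusted p = 0.0139). EPB41L4A-AS1 had -0.41, SNHG15 -0.18, ZFAS1 -0.14, SNHG5 -0.06, MALAT1 -0.03, SNHG1 -0.0073, SNHG12 0.07 and SNHG8 0.24. NEAT1 lost this call when any 1 of the 8 libraries was left out (adjusted p 0.0696 to 0.182), with DESeq2 (0.0991) and without the low-count filter (0.0973). GAS5 lost it without the Hep3B control, sertraline or both-drug library (adjusted p 0.0507 to 0.105) and with total count scaling (-0.23, 0.0855). Conversely, EPB41L4A-AS1 was called without the Hep3B control or XL413 library (-0.65 and -0.67), and SNHG15 without the Hep3B sertraline or both-drug library (-0.45 for each).

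XL413 inside Huh7 called 4 of the 10 RNAs, where 20.5% of all genes were called. NEAT1 (0.75 ± 0.10, edgeR adjusted p = 1.97e-05) and MALAT1 (0.56 ± 0.11, adjusted p = 0.00113) rose, and SNHG8 (-0.47 ± 0.10, adjusted p = 0.00205) and SNHG5 (-0.27 ± 0.09, adjusted p = 0.0431) fell. GAS5 had -0.20, ZFAS1 -0.14, SNHG15 -0.12, EPB41L4A-AS1 -0.05, SNHG1 0.09 and SNHG12 0.10. MALAT1 and SNHG8 were not called without the Huh7 sertraline or both-drug library (adjusted p 0.112 to 0.169), and SNHG5 without any 1 of the Huh7 libraries (0.185 to 0.551). SNHG5 also lost its call with DESeq2, with total count or upper quartile scaling, and with no filter or a stricter one (0.0503 to 0.234).

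The difference between the lines in the XL413 effect, Hep3B minus Huh7, was called for 3 of the 10, where 8.9% of all genes were called. SNHG8 had 0.70 ± 0.14 (edgeR adjusted p = 0.00310), with an XL413 effect of 0.24 ± 0.10 in Hep3B and of -0.47 ± 0.10 in Huh7. MALAT1 had -0.60 ± 0.16 (adjusted p = 0.0187) and NEAT1 -0.46 ± 0.14 (adjusted p = 0.0411), both with the larger value in Huh7. EPB41L4A-AS1 had -0.35, GAS5 -0.15, SNHG1 -0.10, SNHG15 -0.06, SNHG12 -0.04, ZFAS1 0.0042 and SNHG5 0.22. Without the Huh7 sertraline or both-drug library none of the 3 was called (adjusted p 0.0824 to 0.483). MALAT1 was also lost without the Hep3B sertraline or both-drug library (0.156 and 0.157), and NEAT1 without these (0.0684 and 0.0645) or without the Huh7 control or XL413 library (0.0822 and 0.0779). NEAT1 was lost as well with DESeq2 (0.0897), total count scaling (0.0700) and no filter (0.0698). EPB41L4A-AS1 was called without the Hep3B control or XL413 library (-0.59 and -0.61).

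**Figure D3:**
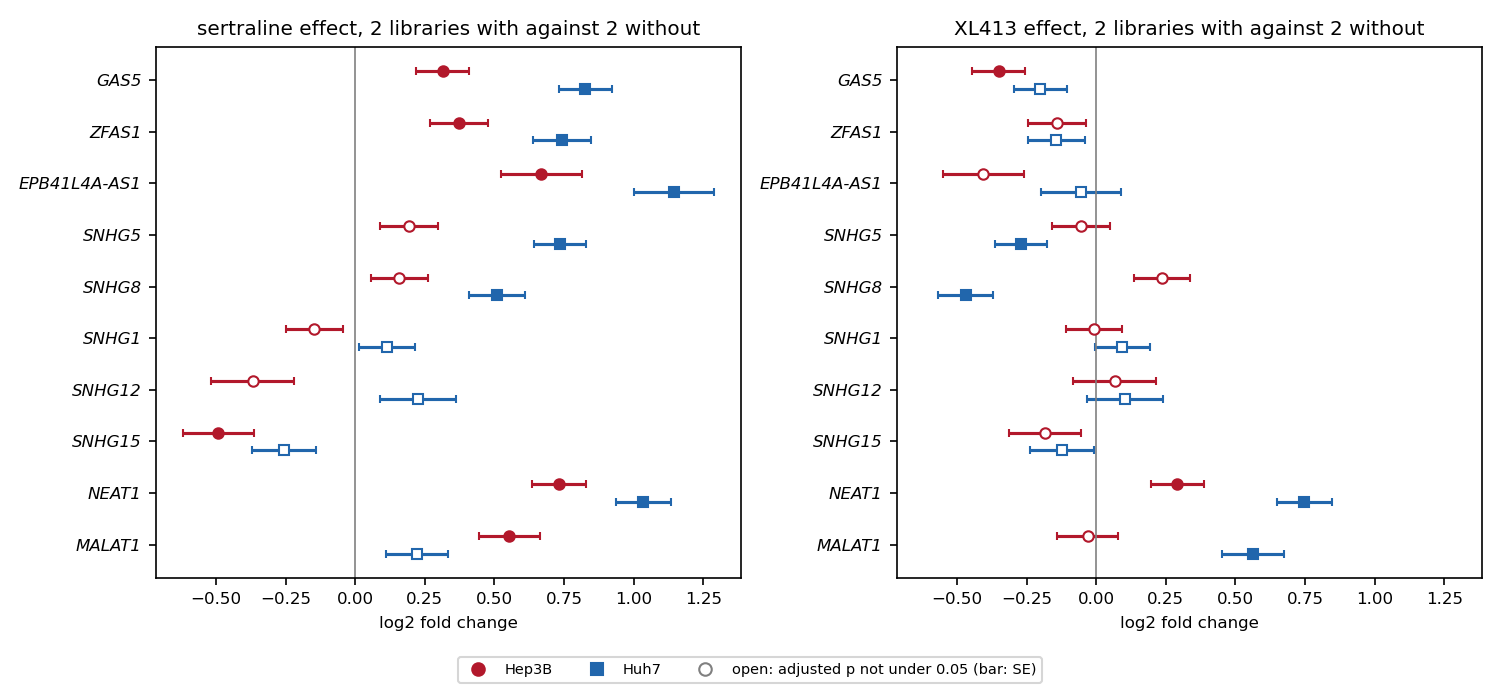
Sertraline effect (left panel) and XL413 effect (right panel) on each RNA inside Hep3B (red circles) and Huh7 (blue squares), as log2 fold change ± 1 SE, filled where the adjusted p is under 0.05. NEAT1 lay right of 0 in all 4 estimates, and SNHG8 had 0.24 in Hep3B and -0.47 in Huh7 for XL413.

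Over the 8 libraries, with each line's mean subtracted from log2 CPM, the hosts fell into groups that moved together. GAS5 had a Pearson r of 0.97 with ZFAS1, 0.957 with EPB41L4A-AS1 and 0.941 with SNHG5, and 0.66 with SNHG8. SNHG1 and SNHG12 had an r of 0.946 with each other and of 0.0935 and 0.0323 with GAS5. NEAT1 and MALAT1 had an r of 0.824, and SNHG15 had -0.80 with NEAT1 and -0.815 with MALAT1. These are descriptions over 8 points that share 4 treatments, a library each and the same scaling.

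**Figure D4:**
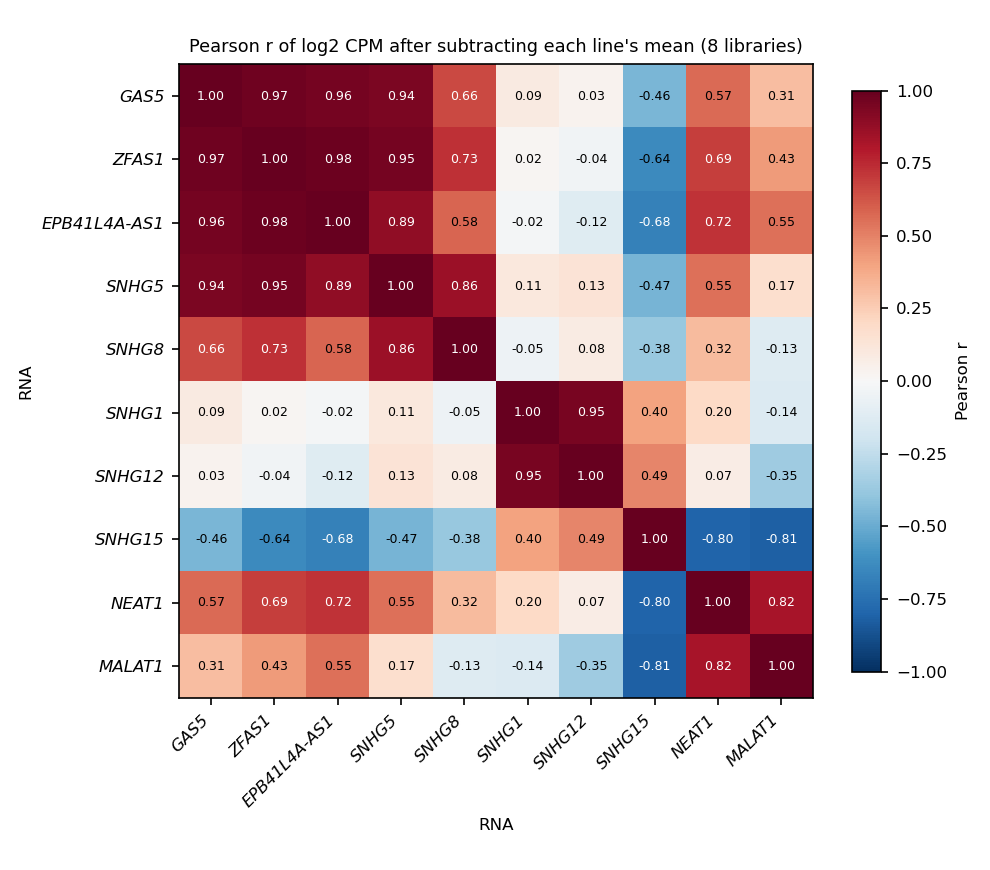
Pearson r between the log2 CPM of each pair of RNAs over the 8 libraries after each line's mean was subtracted, from -1 (blue) to 1 (red). GAS5, ZFAS1, EPB41L4A-AS1 and SNHG5 form a block of high values, apart from SNHG1 and SNHG12.

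By the same measure, the 5 of 9873 genes most like GAS5 were PLEKHH1 (r = 0.998), EPRS (0.995), FCHO2 (0.991), BOD1 (0.990) and CPPED1 (0.987). EPRS charges tRNA with glutamate and proline. It had 381 CPM with both drugs, 473 CPM with sertraline, 350.3 CPM with XL413 and 406 CPM in control in Hep3B, the same order as GAS5. The 5 genes most like NEAT1 were MANBA (0.998), ATP8B1 (0.991), PPARGC1A (0.982), UVRAG (0.981) and DOPEY2 (0.980). MANBA is a lysosomal mannosidase and PPARGC1A a coactivator of mitochondrial genes. MANBA had 91.1 CPM with both drugs, 49.9 CPM with sertraline, 43.5 CPM with XL413 and 27.5 CPM in control in Huh7, the same order as NEAT1. Genes chosen by likeness follow the order of the RNA they were matched to, so these levels are a description.

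Genes beside or over the hosts were read off the table. SLC3A2, the heavy chain of amino acid transporters, lies 188 bases from SNHG1 and rose with sertraline (1.25 ± 0.19, edgeR adjusted p = 0.0125), where SNHG1 had -0.13 ± 0.13. ZNFX1, which overlaps ZFAS1, had -0.40 ± 0.13, ZBTB37, which overlaps GAS5, had -0.01 ± 0.13, and TRNAU1AP, which overlaps SNHG12, had -0.57 ± 0.17, none of them called. EPB41L4A, which overlaps EPB41L4A-AS1, had 61 reads in all 8 libraries. Libraries were stranded per the labels, but the sources used here do not say whether strand was used in counting, and the reads of such overlapping pairs may not be told apart. The snoRNA rows inside the hosts had 9 reads (SNORD99), 8 reads (SNORD12C), 31 reads (SNORD12B) and 10 reads (SNORA13) over all libraries, too few to test.

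Other genes of the same pathways were counted from lists. Of 18 further noncoding hosts, 15 were in the table and 14 were tested. LRRC75A-AS1, which also hosts SNORD49 genes, was the only 1 called for sertraline against control (0.69 ± 0.13, edgeR adjusted p = 0.0251). It had 526 CPM with both drugs, 707 CPM with sertraline, 417 CPM with XL413 and 458 CPM in control in Hep3B, and 799 CPM, 1102 CPM, 524 CPM and 659 CPM in the same order in Huh7. C6orf48 (0.61, adjusted p = 0.0555), SNHG7 (0.65, adjusted p = 0.0700) and SNHG6 (0.51, adjusted p = 0.0939) did not pass. The list's median was -0.05, against 0.01 over all genes, with 6 of 14 above 0. SNHG14 had 220.3 to 258.8 CPM in Hep3B and 0 to 0.0765 CPM in Huh7.

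Ribosomal protein genes, whose mRNAs carry the 5′ TOP, had 0 of 79 called for sertraline against control by edgeR, with a median of 0.20, and 71 of 79 above 0. For both drugs against XL413 0 of 79 were called by edgeR and the median was -0.00958, where GAS5 had 0.54. For both drugs against control 2 of 79 fell, RPL35 and RPL24, where 9.22% of all genes were called, and the median was -0.17. For both drugs against sertraline 0 of 79 were called by edgeR, 1 of 79 lay above 0, and the median was -0.35. XL413 inside Huh7 called 35 of 79 lower, where 20.5% of all genes were called. The median there was -0.30, with 0 of 79 above 0, where SNHG8 had -0.47 and SNHG5 -0.27. Inside Hep3B XL413 called 9 of 79 lower (median -0.21), where 17.1% of all genes were called. Nonsense-mediated decay factors had 0 of 10 called by edgeR for sertraline against control, both drugs against XL413 and both drugs against control. Their medians were -0.13, -0.02 and -0.04 in that order. Of 19 protein-coding snoRNA hosts outside the ribosome, 0 were called by edgeR for sertraline, and 3 fell with both drugs against control, beside the same 9.22% of all genes. These were RCC1 (-0.75), NCL (-0.67), which encodes nucleolin, and CCT6A (-0.53).

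The mRNAs of proteins that bind these RNAs or help build snoRNPs were mostly not called for sertraline against control. By edgeR 0 of 8 snoRNP core, 0 of 13 paraspeckle and 0 of 14 nuclear speckle and splicing proteins were called there, where 4.9% of all genes were. Values above 0 were found there for 0 of 8, 1 of 13 and 2 of 14 in that order. The medians were -0.29, -0.24 and -0.24, against 0.01 over all genes. Sertraline inside Hep3B called 5, 8 and 7 of them lower and 0 higher, where 24.1% of all genes were called. Inside Huh7 it called 1, 6 and 2 lower and 0, 0 and 2 higher, where 27.9% of all genes were called. With both drugs against control, 9.22% of all genes were called. Of 8 snoRNP core proteins, DKC1, the pseudouridine synthase (-0.60 ± 0.14), NHP2L1 (-0.51 ± 0.13) and NHP2 (-0.47 ± 0.12) fell with both drugs against control, and the median was -0.49, against 0.0243 over all genes. Of 8 snoRNP assembly factors, RUVBL1 fell with sertraline (-0.60 ± 0.13, edgeR adjusted p = 0.0403) and with both drugs against control (-0.79 ± 0.13). Of 13 paraspeckle proteins, 5 fell with both drugs against control, among them RBM14 (-1.03 ± 0.15), SFPQ (-0.66 ± 0.13), HNRNPK (-0.56 ± 0.12) and TARDBP (-0.53 ± 0.11). All 13 had a value below 0 there, with a median of -0.45, in the comparison in which NEAT1 rose by 1.40. Of 14 nuclear speckle and splicing proteins, the splicing factors SRSF1 (-0.75), SRSF7 (-0.69) and SRSF2 (-0.68) fell with both drugs against control, where MALAT1 had 0.66 ± 0.21.

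Of 13 other long noncoding RNAs tested, CRNDE was called for sertraline against control (0.97 ± 0.20, edgeR adjusted p = 0.0344), and the median of the list was 0.27. RN7SK was the only RNA without a poly(A) tail with enough reads to test, with 0.38 for sertraline against control and 0.86 for both drugs against control, neither called. For XL413 it had 0.71 against control, 0.62 inside Huh7 and 0.56 inside Hep3B, none called. The part of RNAs without a tail in the MALAT1 and NEAT1 values was not tested. Of the 10 liver lineage markers, TF rose with sertraline (0.75) and was the only 1 called there, where 4.9% of all genes were. FGB fell with both drugs against control (-0.59) and was the only 1 called there, where 9.22% of all genes were. XL413 called 5 of the 10 lower and 0 higher inside Huh7 (median -0.24), where 20.5% of all genes were called. Inside Hep3B it called 5 lower and 1 higher (median -0.43), where 17.1% of all genes were. Of 7 tested markers of other cell types, 2 had a value above 0 for sertraline against control (median -0.71) and 4 for both drugs against control (median 0.15), none called higher. PDGFRB fell with sertraline (-1.08) and with both drugs against control (-1.74), and PECAM1 also fell with both drugs against control (-1.32). COL1A2 had at most 4.22 CPM in Hep3B, against 105 CPM with both drugs, 30.4 CPM with sertraline, 182 CPM with XL413 and 70.8 CPM in control in Huh7. XL413 inside Huh7 called 4 of these 7 markers higher (COL1A2, COL3A1, CDH5 and VWF) and 2 lower, where 20.5% of all genes were called. VWF had at most 0.772 CPM. In Huh7, PDGFRB had 31.4 CPM in control and 17.2 CPM with XL413, and PECAM1 had 6.20 CPM and 3.65 CPM. NEAT1 and MALAT1 rose in the same estimate, and the part of these markers in that rise was not tested.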

How the data were processed

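The authors deposited a table of read counts per Ensembl gene as raw whole numbers, with symbols, biotypes and positions. Per the submitters' processing notes, HISAT2, HTSeq and GRCh38 (hg38) were used, with versions, strand setting and annotation release not given in the sources used here. The table held 0 columns of other samples. Columns were matched to libraries by title.

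Counts were analysed with edgeR 4.0.16, limma 3.58.1 and, as an alternative, DESeq2 1.42.0 in R 4.3.3. The low-count filter filterByExpr, grouped by treatment, kept 16972 genes and removed 14738; scaling was by TMM. Treatments were compared by quasi-likelihood tests (glmQLFit, glmQLFTest) in a model of line plus treatment. This model had 3 residual and 5.3 prior degrees of freedom. Line differences and effects inside a line used line-by-XL413 plus line-by-sertraline terms. P-values were adjusted by Benjamini-Hochberg over all genes, with a threshold of 0.05, and a standard error is the log2 change divided by the square root of F. The procedure was tested on simulated counts.

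The replicate number of a library stands for its line, and deviations of same-line libraries from treatment means correlated with r of 0.885 to 0.946, so line stays in the model. The RNAs and gene lists were chosen with earlier results of these data known. The values of all 10 RNAs are given in each comparison; of a list, up to 4 called genes with the smallest p for sertraline are named, and called genes of other comparisons were named after their values were seen (1 called gene is not reported here). Likeness was computed for genes with official symbols and at least 3 log2 CPM on average. Depth limits the precision of rows with few reads. Figures were drawn with matplotlib 3.10.9.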

Additional observations from a re-analysis of the deposited data

Results flagged for a closer look

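Responses to a drug were called different between the lines for 5 of the 10 RNAs by the test of the difference itself (edgeR adjusted p, Hep3B minus Huh7, log2 scale). The spread in this test came from departures from additive drug effects, not from repeated cultures. A difference between the lines and one between single cultures cannot be told apart. For sertraline, where 4.34% of all genes were called, GAS5 had -0.51 (adjusted p = 0.0328) and SNHG5 had -0.54 (adjusted p = 0.0310). For XL413, where 8.9% of all genes were called, SNHG8 had 0.70 (adjusted p = 0.00310), MALAT1 had -0.60 (adjusted p = 0.0187) and NEAT1 had -0.46 (adjusted p = 0.0411). Each of the 5 calls was lost when the Huh7 sertraline library or the Huh7 library with both drugs was left out (adjusted p 0.0824 to 0.483). Groups of 2 libraries were too small for a search for outlying samples.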

How the results depend on the processing

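The counts of RNAs called, of 10, changed with several settings; the cause was not tested. For sertraline against control (2), they were 4 without the low-count filter, with DESeq2 and at an adjusted p under 0.10, 0 without the replicate block (the line), 8 in a fit with line-specific drug effects and 6 in an additive model of 4 libraries against 4. For both drugs against control (1), they were 3 without the filter and with DESeq2, 4 at 0.10, 0 without the replicate block and 7 with line-specific effects. For both drugs against XL413 (0), they were 1 with total counts, with DESeq2 and at 0.10, 3 without the filter and 7 with line-specific effects. With line-specific effects XL413 against control and both drugs against sertraline had 3 each (0), and the additive model gave 1 for XL413. DESeq2 gave 1 for the line difference in sertraline (2), and for XL413 inside Hep3B (2) DESeq2 and no filter gave 1. The additive model and the effects inside a line were added after seeing the data. In the additive model 20% of all genes were called for sertraline and 6.45% for XL413. In the main fit against control, 4.9% and 0% of all genes were called. Shares of all genes called in the other settings, or with 1 library left out, are not given here. The counts in these settings are therefore not read as a result about the 10 RNAs. Leaving out 1 library gave 0 to 2 calls for sertraline against control and for both drugs against control, and 0 to 1 for both drugs against XL413. It gave 0 to 4 for each line difference, 6 to 8 between the lines, 1 to 7 for sertraline inside Hep3B, 5 to 7 inside Huh7, and 1 to 2 and 1 to 4 for XL413 inside Hep3B and Huh7. No called change reversed its sign in any of these alternatives. Scaling by total counts moved the median of all genes for both drugs against control to 0.145, from 0.0243 with TMM.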
